A study of Mus musculus with 21 samples.

Results

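The regions described here are stretches of chromatin that were open in both compartments of the small intestinal (SI) epithelium, SI villus and SI crypt. They were not called open in colon epithelium and had no pooled peak of the vitamin D receptor (VDR). They were chosen by measured values: a peak of the pooled SI villus ATAC-seq list was a member if a pooled SI crypt ATAC-seq peak covered 1 bp of it or more and if no pooled colon ATAC-seq peak, and no pooled VDR ChIP-seq peak of any compartment, touched it. Of 64782 SI villus peaks, 43350 overlapped an SI crypt peak, 18014 of these overlapped no colon peak, and 15459 of those overlapped no VDR peak. The members were thus 23.9% of the SI villus list and 85.8% of the open regions that SI villus and SI crypt shared without colon.

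ATAC-seq, which reads where a transposase can cut DNA and so which chromatin is accessible, was done on 3 samples each of SI villus, SI crypt and colon, and VDR ChIP-seq on 4 samples each of the same compartments. All samples were wild-type epithelium, of strain C57BL/6 by the labels and C57BL/6J by the paper. The ATAC-seq mice were 90 days old by the labels. The isolation text that goes with these samples speaks of 1,25(OH)2D3 (the hormone form of vitamin D) given 1 h before harvest, while the paper describes ATAC-seq mice that were not treated; the files do not settle this. The ChIP-seq mice, 4 to 6 weeks old by the labels, had received 10 ng/g 1,25(OH)2D3 for 1 h, so absence of a VDR peak refers to hormone-treated mice. The paper describes older ChIP-seq mice than the labels do, and the files do not settle this either. SI tissue was the proximal small intestine. Its villi stayed on a 70 µm strainer and its crypts passed through, while colon was the whole epithelium. The labels tie no sample to a mouse, compartments may share mice, and p-values measure only the spread between these samples. Depth before filtering was 32767083 to 62692175 tags per ATAC-seq sample and 10588783 to 17970894 fragments per VDR sample. After filtering 14376006 to 38175468 tags and 3100376 to 14716273 fragments were kept.

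As background, most accessible regions away from promoters are enhancers, short elements bound by transcription factors that set which genes a cell type uses. In the proximal small intestine GATA4 and GATA6 maintain the jejunal and duodenal program of absorptive genes, HNF4A and HNF4G drive enterocyte genes, CDX2 sets intestinal identity along the whole gut, and AP-1 factors (FOS and JUN dimers) act in many differentiating epithelia. VDR binds DNA with RXR at DR3 elements, a repeated hexamer with a spacer.

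Sequences of 4 members show what these elements look like. They were chosen among the members whose nearest start, within 50 kb, was that of a gene of the lists used below. The member of highest SI villus −log10 q was taken in turn for a GATA, an HNF4A and a CDX2 match and for none of these, each member being used once, and a member may hold other motifs as well. Each is the 200 bp centred on the summit, the base of highest signal, on the plus strand of mm9. Capitals mark matches on either strand to the GATA words AGATAA or TGATAA (Aldh1a1 member, chr19:20641611-20641810, intergenic), the HNF4A word CAAAGTCCA (Cyp2j6 member, chr4:96227195-96227394, intergenic), the CDX2 words TTTATTG or TTTATGG (Slc10a2 member, chr8:5105314-5105513, promoter) and the AP-1 word TGACTCA (Slc19a3 member, chr1:83033539-83033738, intron).
Aldh1a1 member: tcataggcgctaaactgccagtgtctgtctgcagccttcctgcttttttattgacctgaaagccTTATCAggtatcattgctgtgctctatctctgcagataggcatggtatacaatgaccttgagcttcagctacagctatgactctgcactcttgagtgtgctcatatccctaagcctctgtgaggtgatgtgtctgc
Cyp2j6 member: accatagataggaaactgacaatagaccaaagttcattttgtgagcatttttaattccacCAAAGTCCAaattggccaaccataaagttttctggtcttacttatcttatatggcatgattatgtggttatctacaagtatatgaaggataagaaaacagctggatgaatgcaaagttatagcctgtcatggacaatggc
Slc10a2 member: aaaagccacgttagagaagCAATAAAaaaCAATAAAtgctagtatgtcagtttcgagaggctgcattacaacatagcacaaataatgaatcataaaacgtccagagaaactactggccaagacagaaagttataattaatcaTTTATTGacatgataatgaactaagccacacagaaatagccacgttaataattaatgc
Slc19a3 member: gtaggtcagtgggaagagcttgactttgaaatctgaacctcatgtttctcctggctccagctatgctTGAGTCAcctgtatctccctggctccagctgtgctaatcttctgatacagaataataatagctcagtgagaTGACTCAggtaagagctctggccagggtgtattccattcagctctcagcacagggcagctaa

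The Aldh1a1 member lay 34.7 kb upstream of the start of Aldh1a1, a retinaldehyde dehydrogenase. Its fold enrichment, the ratio of the signal at the summit to the local background of the same sample, was 16.8, 12.4 and 9.21 in SI villus samples 1 to 3 and 7.88, 7.08 and 6.47 in the SI crypt samples, with no peak in any colon sample. The Slc10a2 member lay 0.182 kb upstream of the start of Slc10a2, the apical bile acid transporter of the gut. Its fold enrichment was 8.99, 9.51 and 7.83 in SI villus and 6.23, 5.52 and 7.18 in SI crypt, again with no colon peak. At the Cyp2j6 member, 6.94 kb upstream of a cytochrome P450 gene, the values were 8.28, 7.44 and 5.33 in SI villus and 9.01, 7.60 and 6.93 in SI crypt. These 3 regions were called in all 6 SI samples. The Slc19a3 member, in an intron 1.37 kb inside the gene of a thiamine transporter, had 11.8, 11.8 and 8.24 in SI villus and 5.35 and 4.49 in SI crypt samples 1 and 3, and was not called in SI crypt sample 2.

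The members were weak to middling peaks rather than the strongest of their lists. Their median SI villus −log10 q, the strength that MACS2 assigns to a peak, was 13.3 (quartiles 8.03 and 24.0) and their median fold enrichment 4.63, beside 14.4 and 4.64 over all SI villus peaks. The median member stood at percentile 47.4 of the SI villus list and 50.2 of the SI crypt list. Only 66 members were among the 1000 strongest SI villus peaks, and 4.67% were in the top 10% of that list. These strengths belong to the lists that chose the members and are given as a description. SI villus and SI crypt fold enrichment ranked members loosely alike (Spearman's rho 0.34 over 15459 members, which share the pooled libraries), and 49.2% ranked higher in SI villus than in SI crypt.

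Single samples called part of the pooled set. SI villus samples 1 to 3 had a peak at 73.9%, 65.7% and 42.1% of the members, SI crypt samples at 59.98%, 35.7% and 65.0%, and colon samples at 0.543%, 1.36% and 1.91%. Over all SI villus peaks the shares were 71.9%, 66.9% and 47.8% in SI villus samples and 51.4%, 38.8% and 52.9% in SI crypt samples, so the SI villus shares of the members lay near those of the whole list. The ranges of SI villus and SI crypt overlapped. The mean was 60.6% ± 16.5 in SI villus and 53.6% ± 15.6 in SI crypt (SD, n = 3 each), a difference of 7.02 percentage points. A two-sided exact permutation test gave p = 0.50, where the smallest p this design allows is 0.10. That test decides nothing, because the samples are few and the members were chosen with them. Members are SI villus peaks picked by pooled SI villus and SI crypt calls, which were made from these same samples. Both shares are therefore given as a description. The difference was −1.89 without SI crypt sample 2, which called the fewest members, and 16.2 without SI villus sample 3. The last sample had the shortest tag extension of its compartment, 68 bp against 145 and 134 bp, and its part in the value was not tested.

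All 3 SI villus samples called 5157 members (33.4%), beside 40.5% of all SI villus peaks, and all 3 SI crypt samples called 3929 (25.4%), beside 33.3% of all SI villus peaks. Both shares of the members were below those of the whole list. All 6 SI samples called 2006 members, with a median SI villus fold enrichment of 7.30, while 470 members were in no single SI sample and rest on the pooled call alone (median fold enrichment 3.23). On the side of the exclusions, 541 members lay under a peak of at least 1 colon ATAC-seq sample and 207 under a peak of at least 1 VDR sample. Between 0 and 83 members lay under the peaks of any 1 VDR sample, where a count of 0 allows a share of up to 0.0194% (3 counts of the 15459; the two-sided Wilson interval of the same 0 ends at 0.0248%). The highest count was in SI crypt VDR sample 1, which had 13381 peaks against 1136 to 2480 in the other SI crypt VDR samples.

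**Figure D1:**
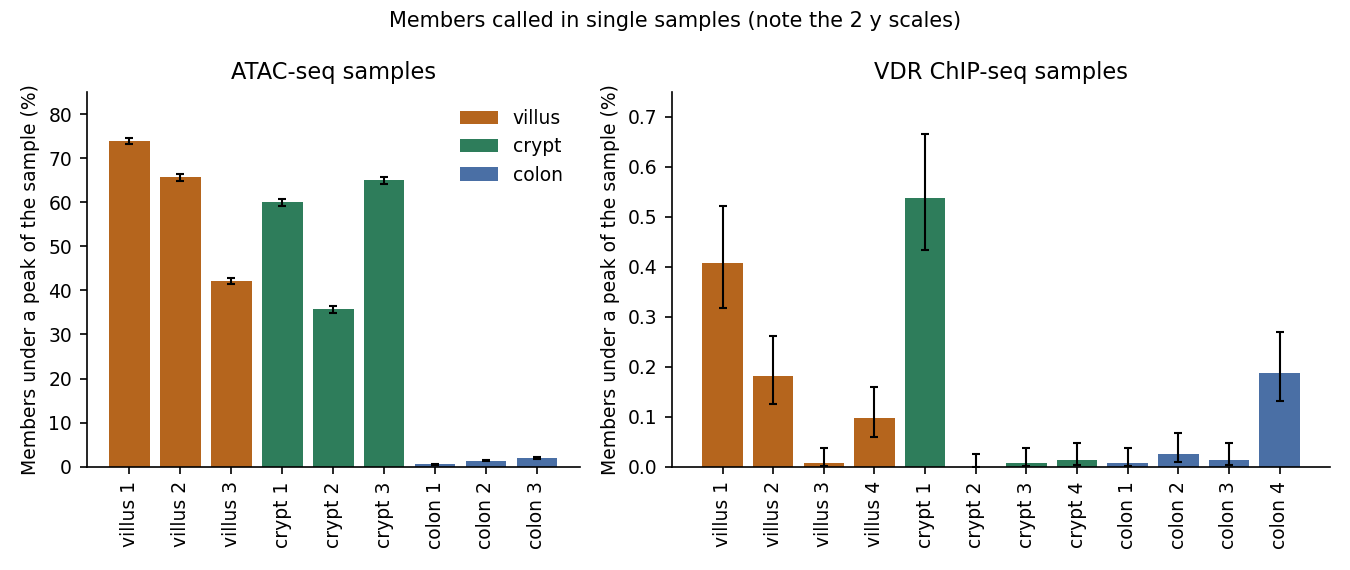
Bars give the share of the 15459 members (percent) under a peak of each ATAC-seq sample (left) and each VDR ChIP-seq sample (right, on a scale that ends below 1%), coloured by compartment. Error bars show the 95% Wilson interval of each share (counting error alone). The 6 SI ATAC-seq samples lie between 35.7% and 73.9%, and no colon or VDR sample exceeds 1.91%.

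The edges of the rule were thinly filled. Members shared a median of 169 bp with their SI crypt peak, 43 shared under 10 bp and 8 exactly 1 bp, while 32 further SI villus peaks missed membership only because the SI crypt peak lay under 10 bp away. The weakest member had an SI villus −log10 q of 1.66. On the excluded side, 54 of the 2555 SI-only open regions with VDR were kept out by VDR peaks whose −log10 q was under 2, and 3 of the 14318 regions open in all 3 compartments by colon peaks under 2. A colon ATAC-seq peak lay within 500 bp of 1000 members and a VDR peak within 500 bp of 917. The median distance to the nearest VDR peak was 15.4 kb, and 40.6% of the members had one within 10 kb, against 52.8% of the regions open in all 3 compartments without VDR and 38.9% of the colon-only open regions without VDR. The share of the members thus lay below that of the commonly open regions and near that of the colon-only regions. It was not computed over all SI villus peaks.

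Some members were copies of one another. A run of 50 bases in the central 200 bp was shared with another member in 679 members (4.39%), and these took 2 of the 100 strongest members in SI villus and 15 of the 100 strongest in SI crypt. Reads from such copies cannot be assigned to 1 place with certainty. The 2 strongest copies in SI crypt lay on chromosome 2, in intergenic DNA over 900 kb from the nearest start, that of B230118H07Rik. Their sequences are shown, with GATA and CDX2 matches in capitals (chr2:100326517-100326716 and chr2:100493031-100493230, plus strand), because 196 of the 196 bases they share in alignment were identical.
Copy 1: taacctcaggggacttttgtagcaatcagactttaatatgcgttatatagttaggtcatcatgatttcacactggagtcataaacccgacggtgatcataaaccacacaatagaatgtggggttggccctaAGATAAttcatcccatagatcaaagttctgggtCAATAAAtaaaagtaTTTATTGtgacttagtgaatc
Copy 2: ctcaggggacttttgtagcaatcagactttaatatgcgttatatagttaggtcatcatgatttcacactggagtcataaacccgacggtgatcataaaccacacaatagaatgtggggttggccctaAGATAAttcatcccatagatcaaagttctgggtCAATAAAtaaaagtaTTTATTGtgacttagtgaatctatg

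Copy 1 had fold enrichments of 15.5, 14.6 and 7.75 in SI villus and 15.5, 13.3 and 15.4 in SI crypt, and copy 2 had 14.4, 10.6 and 10.9 in SI villus and 14.8, 12.9 and 16 in SI crypt. Neither had a colon peak. The densest runs of copies were on chromosome 14 between 3 and 4 Mb, where 18 of 18 members shared a run with another member, and on chromosome 5 between 11 and 12 Mb, with 16 of 16. Over the whole SI villus list 6.41% of the peaks shared such a run with another SI villus peak, and by that wider measure the members had 5.75%.

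The members lay away from promoters. Only 1659 (10.7%, 95% Wilson interval 10.3 to 11.2) had their summit within 1 kb of the start of a protein-coding gene, 6135 (39.7%) were in introns, 414 (2.68%) in exons and 7251 (46.9%) between genes. Promoters took 21.1% of the SI-only open regions that did carry VDR, 36.1% of the regions open in all 3 compartments without VDR, 6.67% of the colon-only open regions without VDR and 24.0% of all SI villus peaks. The median distance to the nearest start was 16.1 kb in the members, against 8.61 kb, 6.30 kb and 21.9 kb in these 3 sets. Regions are not replicates, and the intervals cover counting error only. Members at promoters were weaker than the rest, with a median SI villus −log10 q of 9.66 against 13.9. The share of promoter members was 7.97% when regions with a colon ATAC-seq or VDR peak within 500 bp were left out.

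The members' sequence was poorer in G and C than that of SI-only regions with VDR and of commonly open regions, and close to that of colon-only regions. GC content of the central 200 bp averaged 49.2% ± 7.91 (SD over 15459 regions), against 52.3% in SI-only open regions with VDR, 55.6% in regions open in all 3 compartments and 49.0% in colon-only regions. Members at promoters had 58.0% and those outside 48.1%.

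GATA was the most frequent of the 18 motifs in the members, as it also was in their flanks and in the same windows read backwards. Short words match more often, so shares are best compared between sets and not between motifs. A GATA word was present in 5600 members (36.2%, interval 35.5 to 37.0), beside 24.4% of all SI villus peaks. The share was 32.1% in SI-only open regions with VDR, 16.2% in regions open in all 3 compartments and 13.4% in colon-only open regions. In the members' own flank 1 kb away it was 19.1%, and in the same windows read backwards, which keeps base composition, 13.8%. Outside promoters the share was 38.4% in members, 22.5% in regions open in all 3 compartments and 13.9% in colon-only regions, in the same order. The SI-only open regions with VDR, 21.1% of them at promoters, were not counted outside promoters. Members at promoters had a GATA share of 17.7%, so that comparison is not adjusted for promoters. At least 2 GATA matches stood in 1482 members (9.59%).

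Other intestinal factors had less frequent words, which are exact matches and so undercount looser sites. CDX2 words were in 1426 members (9.22%), beside 7.87% of all SI villus peaks and 6.89% of the SI-only open regions with VDR. They were more frequent in colon-only open regions (16.2%) than in the members. The HNF4A word was in 441 members (2.85%), beside 2.24% of all SI villus peaks. In the SI-only open regions with VDR it was in 2.50%, with an interval of 1.97 to 3.19 that covers the members' share. It was in 2.28% of regions open in all 3 compartments, 1.00% of colon-only regions and 0.343% of the flanks. Outside promoters it was in 3.07% of the members and 3.19% of the regions open in all 3 compartments, so the order of these sets turned. This word overlaps the DR1 element, which was searched by name and found in 96 members. The KLF word CCACACCC was in 696 members (4.50%), beside 4.81% of all SI villus peaks. The HNF1 palindrome was in 3 members (0.0194%), beside 0.0278% of all SI villus peaks, a count too low for comparison. GATA and CDX2 words occurred together in 709 members (4.59%), while the product of their shares was 3.34%.

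The AP-1 word was in 2177 members (14.1%), beside 15.6% of all SI villus peaks. It was in 12.0% of the SI-only open regions with VDR, 15.6% of the regions open in all 3 compartments, 13.8% of the colon-only regions and 3.51% of the flanks. Outside promoters the share was 14.9% in the members and 21.9% in the regions open in all 3 compartments. The motif of BACH1 and MAFK, searched by name, contains this word. A CTCF motif, searched by name, was in 576 members (3.73%), beside 2.34% of all SI villus peaks and 1.80% of the SI-only open regions with VDR. It was in 2.75% of regions open in all 3 compartments and 1.10% of colon-only regions. CTCF is the factor that bounds chromatin loops. Outside promoters its share was 3.94% in the members and 3.59% in the regions open in all 3 compartments. Among members called in at least 2 of 3 samples of both SI compartments it was 1.66%. These members were stronger, with a median SI villus −log10 q of 23.4 against 13.3 in all members. The share of all SI villus peaks was not filtered alike. The DR3 element of VDR was in 7 members (0.0453%), beside 0.11% of all SI villus peaks and 0.587% of the SI-only open regions with VDR. Here the rule, which removed VDR peaks, bears on the comparison, and it is given as a description.

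**Figure D2:**
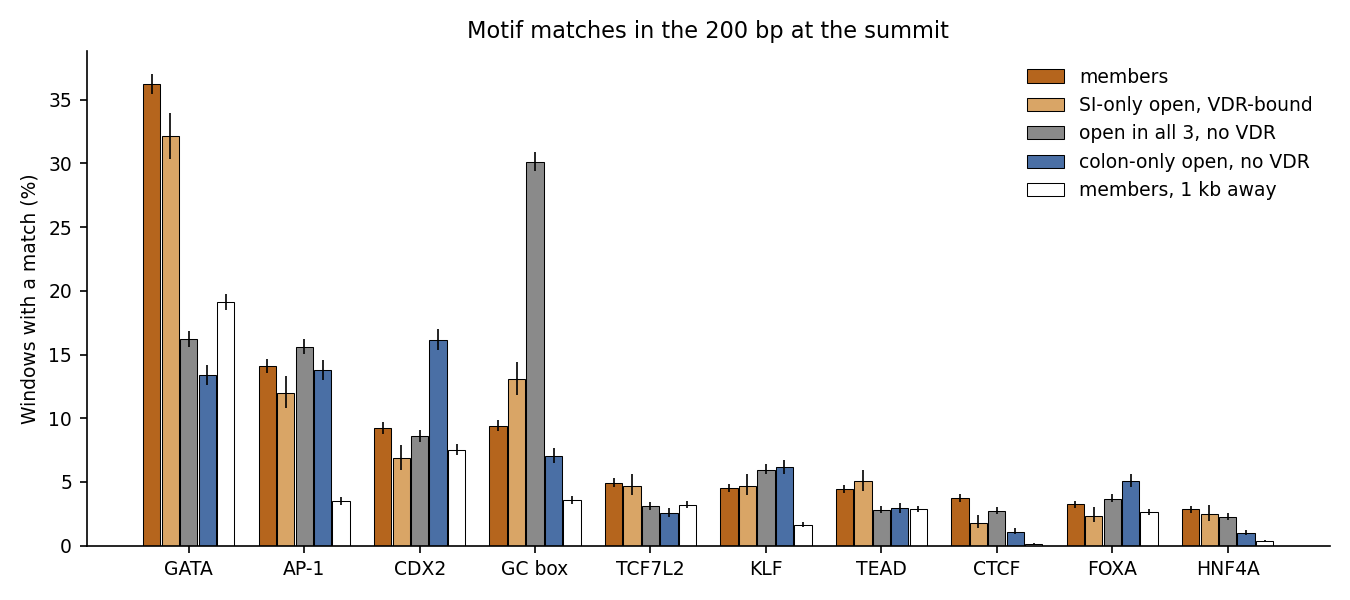
Bars give the percentage of windows of 200 bp at the summit with a motif match, for the members, the 3 sets they are compared with and the members' flanks 1 kb away, with 95% Wilson intervals. GATA stands at 36.2% in the members against 16.2% in regions open in all 3 compartments and 13.4% in colon-only open regions, and CDX2 is highest in colon-only regions (16.2%).

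Strong and weak members held different motifs. Members were cut into deciles of SI villus −log10 q. In the strongest decile 55.7% had a GATA word, against 25.6% of the weakest. AP-1 went the same way, with 30.8% of the strongest and 5.76% of the weakest decile. The CTCF motif was in 1 of 1546 members of the strongest decile (0.0647%), 7.18% of decile 8 and 4.08% of the weakest decile. The GC box CCGCCC was in 4.27% of the strongest and 15.7% of the weakest decile. In regions open in all 3 compartments GATA was in 18.1% of the strongest and 11.9% of the weakest decile, AP-1 in 20.3% and 7.27%, and CTCF in 0.279% and 5.17%. The GC box went the other way there, with 39.5% of the strongest and 24.5% of the weakest decile. The GATA and AP-1 gradients were thus wider in the members than in the commonly open regions. GATA, AP-1 and CTCF each had gradients of the same direction in both sets. The deciles include promoters, which took 10.7% of the members and 36.1% of the regions open in all 3 compartments. The part of promoters in the gradients was not tested, and no test was made of these differences.

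**Figure D3:**
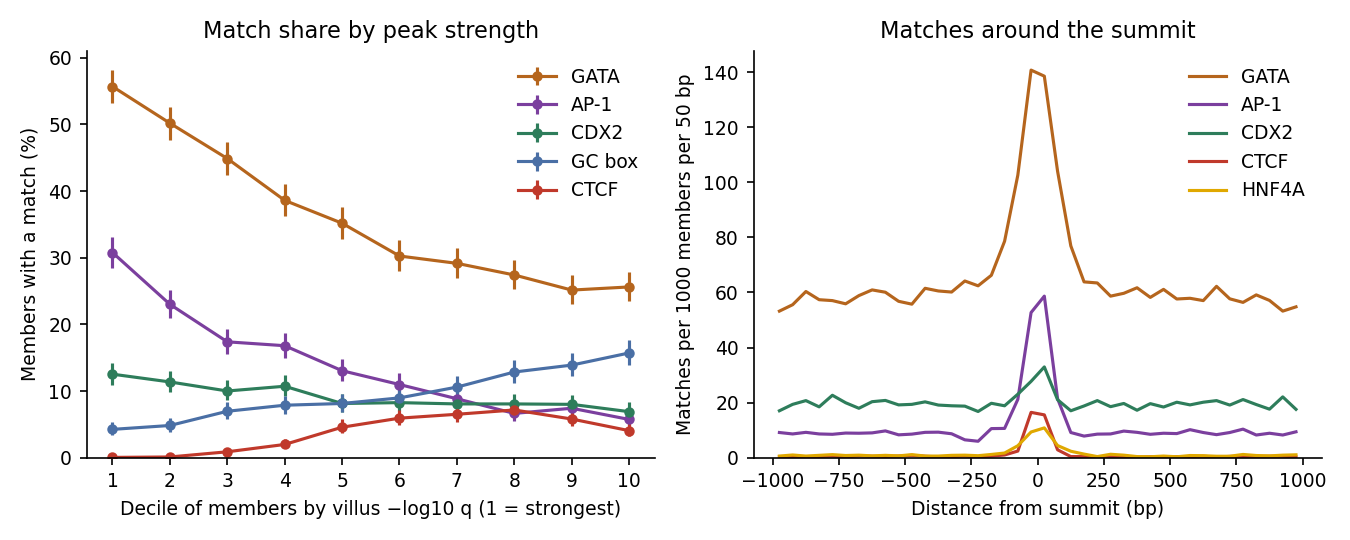
Left, percentage of members with each motif by decile of SI villus −log10 q, from 1 (strongest) to 10, with 95% Wilson intervals. Right, matches per 1000 members in bins of 50 bp by distance from the summit in bp: GATA reaches 141 and AP-1 58.7 at the summit, against 53.2 and 9.19 at the left edge.

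AP-1 words were more frequent in members that ranked higher in SI villus than in SI crypt. Members were split into 3 equal groups by the difference between their percentile in the SI villus and SI crypt lists. AP-1 was in 24.3% of the group ranking higher in SI villus, 11.6% of the middle group and 6.27% of the group ranking higher in SI crypt. GATA was in 42.0%, 35.7% and 31.0% of the same groups. The groups also differed in SI villus strength, with median percentiles of 64.4, 48.6 and 29.8 in the SI villus list. Strength and balance were not separated, and the part of each was not tested. Single samples had the same order for AP-1. In peaks outside VDR peaks the word was in 17.6%, 17.5% and 14.6% of those of SI villus samples, in 9.83%, 8.62% and 9.002% of those of SI crypt samples and in 12.4%, 14.3% and 15.5% of those of colon samples. SI villus and SI crypt samples did not overlap, and this difference was read from the data and not tested.

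The contrast of SI with colon was tested over samples with each sample's own peaks outside VDR peaks. GATA words were in 28.3%, 27.2% and 22.8% of the peaks of SI villus samples and 24.5%, 23.5% and 24.2% of those of SI crypt samples, against 12.6%, 14.0% and 14.9% of those of colon samples. All 6 SI samples were above all 3 colon samples. The means were 25.1% ± 2.196 in SI (SD, n = 6) and 13.8% ± 1.18 in colon (SD, n = 3), a difference of 11.3 percentage points (two-sided exact permutation test, p = 0.0238, the smallest that 84 splits allow; Benjamini-Hochberg adjusted over 18 motifs, p = 0.107). By the same exact permutation test 0 of the 18 motifs passed an adjusted p of 0.05, and 8 had an unadjusted p below 0.05. The adjusted p over the other settings tried for GATA was 0.0714 to 0.167, and 0.0918 to 0.321 with 1 sample left out.

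TCF7L2 words (ATCAAAG, for the effector of Wnt signalling) were in 3.92% ± 0.362 of the SI peaks (SD, n = 6) and 2.93% ± 0.230 of the colon peaks (SD, n = 3), and all 6 SI samples were above all 3 colon samples. CDX2 words were in 9.06% ± 1.00 of the SI peaks (SD, n = 6) and 11.4% ± 1.42 of the colon peaks (SD, n = 3), with overlap between 1 SI sample and the colon samples. HNF4A did not separate the groups, at 2.098% ± 0.386 in SI (SD, n = 6) and 1.75% ± 0.213 in colon (SD, n = 3). The adjusted p was 0.107 for TCF7L2 and CDX2 and 0.273 for HNF4A, each from the exact permutation test.

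**Figure D4:**
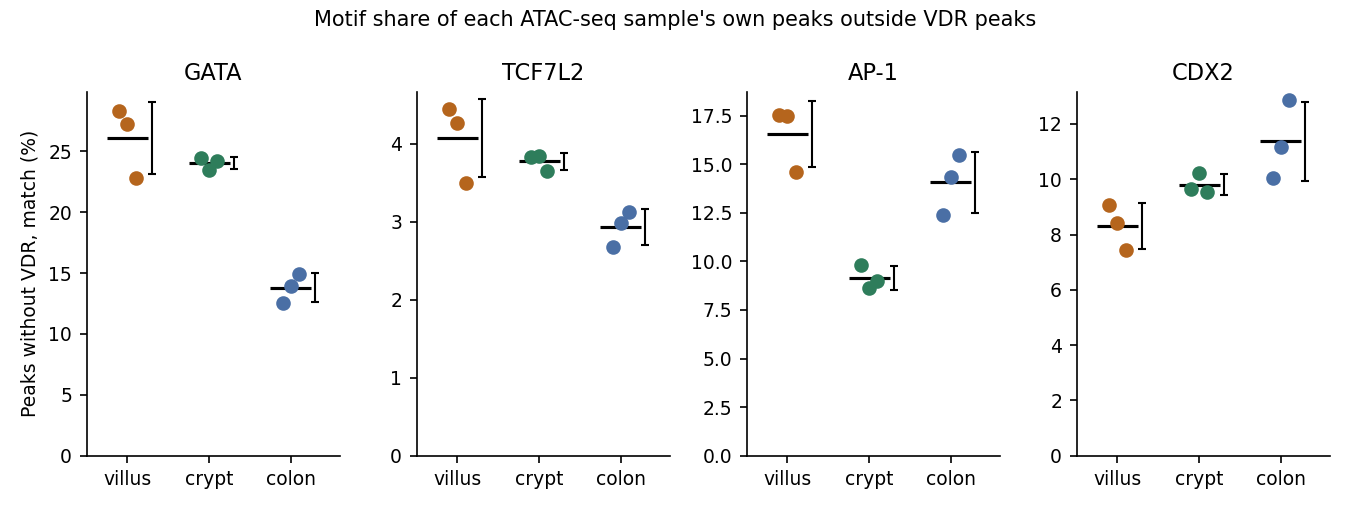
Points give, for each ATAC-seq sample, the percentage of its own peaks outside VDR peaks with a motif match, by compartment. Lines are means and error bars SD over 3 samples. For GATA the 6 SI samples lie between 22.8% and 28.3% and the colon samples between 12.6% and 14.9%, while for AP-1 the SI villus samples lie above the SI crypt samples.

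Members were spread over many genes. Linked to the nearest start of a protein-coding gene, 5936 members lay within 10 kb and 11980 (77.5%) within 50 kb. They reached 4526 genes within 10 kb, which is 20.2% of the 22367 protein-coding genes, and 7008 within 50 kb, which is 31.3%. Of the 7008 genes most had 1 member (4208 genes), 243 had at least 5 and 10 had at least 10. Of the genes with a member within 10 kb, 60.6% also had a VDR peak within 10 kb, against 63.9% of the genes with any SI villus peak there. Long genes collect more regions, and gene length was not adjusted for.

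Pde4d, a phosphodiesterase that breaks down cAMP, had the most members (19 within 50 kb of a start), followed by Pde4b of the same family (11). Dab1, Stk39, Tspan5, Prkag2, St3gal4, Etl4, Nedd4l and Arhgap26 had 10 each. Stk39 encodes a kinase of ion cotransporters, Prkag2 a subunit of the energy sensor AMPK, St3gal4 a sialyltransferase and Nedd4l a ubiquitin ligase of sodium channels. The longest run of members with gaps of up to 10 kb also belonged to St3gal4, with 8 members over 21.2 kb of chromosome 9 (34880112 to 34901274). Most members stood alone by that measure (10176, 65.8%).

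The strongest members by SI villus −log10 q were nearest to Lyn, Lrrn1, Lpar1, Scin, Nipsnap3b, Rasal2, Nr5a2, Ptprq, Ppef2 and Uqcrfs1. The member at Lyn, a SRC family kinase, lay over an exon 24.6 kb from a start (chromosome 4, 3707910 to 3708473), with a −log10 q of 90.0 in SI villus and 42.7 in SI crypt. Its fold enrichment was 14.9, 11.5 and 11.2 in SI villus samples and 10.3, 8.62 and 12.3 in SI crypt samples. Nr5a2, a nuclear receptor of crypt and pancreatic cells, had a member 73.5 kb upstream with 15.2, 14.1 and 11 in SI villus and 7.88, 4.92 and 9.71 in SI crypt. Both regions were called in all 6 SI samples and in no colon sample.

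By SI crypt −log10 q the strongest members were nearest to Gm1840, Pdha2, Epha3, 4930449A18Rik, Ptprd, B230118H07Rik (both copies described above), Gatsl2, Rergl and Pvrl3. None of the 10 strongest in SI villus (0) but 6 of these 10 lay over 300 kb from any start, beside 2.35% of all members. The nearest gene is then only a landmark. The member near Rergl had fold enrichments of 4.72 and 4.36 in SI villus samples 2 and 3, no peak in SI villus sample 1, and 14.3, 14.8 and 15.2 in SI crypt, so it was clearly stronger in SI crypt.

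Lists of intestinal genes, chosen with earlier results known, differed in how many genes had a member. Of 28 SI transcription factors, 22 (78.6%) had a member within 50 kb, beside 31.3% of all protein-coding genes. Gata4 led with 7 members, followed by Tcf7l2 (5), Hnf4g (4), the lipid-sensing receptor Ppara (4) and the bile acid receptor Nr1h4 (3). Cdx1, Cdx2 and the xenobiotic receptor Nr1i2 were among those with none. They had 4, 9 and 5 VDR peaks within 10 kb over the 3 pooled lists, while Gata4, with 7 members, had 10. Open regions under a VDR or colon ATAC-seq peak could not be members, and the part of each exclusion was not tested. Every gene of this list had at least 1 SI villus peak of some kind within 10 kb. Over all 22367 protein-coding genes, 15516 had one within 50 kb, and a gene without one cannot have a member.

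The Gata4 members ran from 37.4 kb upstream into the introns. The strongest lay 10.3 kb upstream (chromosome 14, 63900675 to 63901071) with a GATA and an AP-1 word, and its fold enrichment was 10.8, 11.9 and 6.89 in SI villus against 5.70 in SI crypt sample 1 and no peak in SI crypt samples 2 and 3. A member 0.039 kb inside the start had 6.29, 7.92 and 5.32 in SI villus and 5.90 and 4.26 in SI crypt samples 1 and 2. In an intron, 9.99 kb from a start, another member had 8.15, 6.33 and 6.89 in SI villus and 7.39, 5.80 and 8.28 in SI crypt. The strongest Gata4 member was thus called in 1 of 3 SI crypt samples and the intronic one in all of them.

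Genes of nutrient handling had members in most cases. For transporters of sugars, peptides and amino acids, a list that also holds nucleoside and vitamin carriers, it was 19 of 22 genes (86.4%), led by the thiamine carrier Slc19a3 (5 members), the inositol transporter Slc5a11 (4) and the amino acid transporter Slc7a8 (4). Slc2a2, the basolateral glucose transporter, had 3 and Slc5a1, the apical sodium-glucose transporter, had 2. Brush border enzymes had 17 of 24 (70.8%), led by the peptidases Dpp4, Mep1b and Mme (6 each) and the alkaline phosphatase Alpi (4). Lct, the lactase gene and a classical SI marker, had no member within 50 kb, nor had Vil1. These 2 genes had 11 and 25 VDR peaks within 10 kb over the 3 pooled lists. Dpp4 and Mgam, with 13 and 25 such peaks, had 6 members and 1 member. Open regions under a VDR or colon ATAC-seq peak could not be members, and the part of each exclusion was not tested. Lipid absorption genes had 17 of 27 (63.0%), led by the cholesterol exporter Abca1 (6), Apob (4) and Scarb1 (4), with 3 at Mttp, which loads lipid onto apolipoprotein B. Xenobiotic and bile acid genes had 17 of 28 (60.7%), led by Cyp3a25 (5), Ugt2a3 (4) and Gsta1 (4). Every gene of these lists had an SI villus peak of some kind within 50 kb.

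The promoter of Enpep, a brush border aminopeptidase, carried a member 0.069 kb upstream of the start with 11.1, 7.95 and 7.27 in SI villus and 11.5, 7.58 and 9.54 in SI crypt. That of Abcg5, a sterol exporter, carried one 0.006 kb inside the start with 9.96, 7.54 and 8.21 in SI villus and 10.3, 7.05 and 7.99 in SI crypt. Both were called in all 6 SI samples and in no colon sample. At Dpp4 the strongest of 6 members had 9.63, 9.78 and 8.15 in SI villus and 10.8, 7.79 and 5.09 in SI crypt, while an intronic member was called in no SI villus sample but in all SI crypt samples (7.32, 6.26 and 8.32). Members of 1 gene thus differed in balance between the compartments.

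Several genes that VDR is known to act on had no member. Trpv6, S100g, Atp2b1, Cyp24a1 and Vdr itself had 0 members within 50 kb, although each had VDR peaks within 10 kb (4 to 25 over the 3 pooled lists). Slc30a10, a manganese exporter with 20 VDR peaks within 10 kb, had 1 member, 30.2 kb upstream, with 8.16 and 8.49 in SI villus samples 1 and 2 and 6.70 in SI crypt sample 1. Any open region there with a VDR peak or a colon ATAC-seq peak was barred from membership. In the list of iron, calcium and zinc handling 9 of 20 genes (45.0%) had a member, led by the phosphate transporters Slc34a2 and Slc20a1 (4 each) and the iron reductase Cybrd1 (2). The stronger Cybrd1 member, 28.5 kb from the start, had 9.98, 9.51 and 5.82 in SI villus and 10.9, 9.68 and 8.91 in SI crypt.

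Stem cell and crypt genes had members in 18 of 24 cases (75%), led by Ephb2 (7), Smoc2 (6), Rgmb (4) and Lgr5 (3). The strongest of the Lgr5 members, 37.3 kb upstream of this stem cell receptor gene, had 10.7, 8 and 5.82 in SI villus and 3.94 in SI crypt sample 1 only. Another, 42.9 kb upstream by the nearest start, had 4.05 and 4.85 in SI villus samples 1 and 3 and 6.42, 5.36 and 9.16 in SI crypt. The stronger of 2 members near Olfm4, a crypt base marker, lay 39.7 kb from the start and had 10.5, 8.63 and 6.30 in SI villus and 11.1, 8.80 and 10.0 in SI crypt. The other, at the promoter, had 6.73 in SI villus sample 2 and 4.15 and 5.66 in SI crypt samples 2 and 3. By rule every member is open in both SI compartments, so these regions do not bear on how far open chromatin near crypt genes was particular to the crypt.

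Lists of rarer cells lay on both sides of the 31.3% of all protein-coding genes. Paneth and antimicrobial genes had 8 of 15 (53.3%), led by Spink4 (3), and goblet and tuft genes had 7 of 15 (46.7%), led by Agr2 (3). Each of these 2 lists had 12 members, or 0.8 per gene, beside 0.536 over all protein-coding genes. Enteroendocrine genes had 4 of 19 (21.1%), Chga and Pax6 with 3 each. Colon identity genes had 7 of 28 (25.0%), led by Prdx6 (3), and none of the posterior Hox genes in the list had a member. A gene needs an SI villus peak to have a member. One lay within 50 kb of 12 of 15 genes in the Paneth list and 12 of 15 in the goblet and tuft list. It was 9 of 19 for enteroendocrine genes and 22 of 28 for colon identity genes.

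Markers of other cells were also counted. Immune cell markers had 7 of 23 (30.4%, 10 members), beside 31.3% of all protein-coding genes. Those with a member were Adgre1, Itgam, Cd3e, Ms4a1, Spi1, Laptm5 and Runx3. Ptprc, Cd3g and Csf1r were among those with none. Only 11 of the 23 had an SI villus peak of any kind within 50 kb, beside 15516 of the 22367 protein-coding genes. The macrophage gene Adgre1 had 3 members, and the strongest in SI crypt had 6.21 and 5.81 in SI villus samples 1 and 2 and 10.1, 8.85 and 9.23 in SI crypt. Stromal and muscle markers had 8 of 20 (40.0%, 9 members). Those with a member were Acta2, Dcn, Pdgfra, Vim, Pecam1, Myh11, Tagln and Ret. Col1a1, Col3a1, Des and Kdr were among those with none. Of these 20 genes 15 had an SI villus peak of any kind within 50 kb. Acta2, the smooth muscle actin gene, and Dcn had strong members nearest to them, with 10.3, 9.91 and 6.23 in SI villus and 7.62, 6.86 and 7.73 in SI crypt at Acta2. The part of other cells in these values was not tested.

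**Figure D5:**
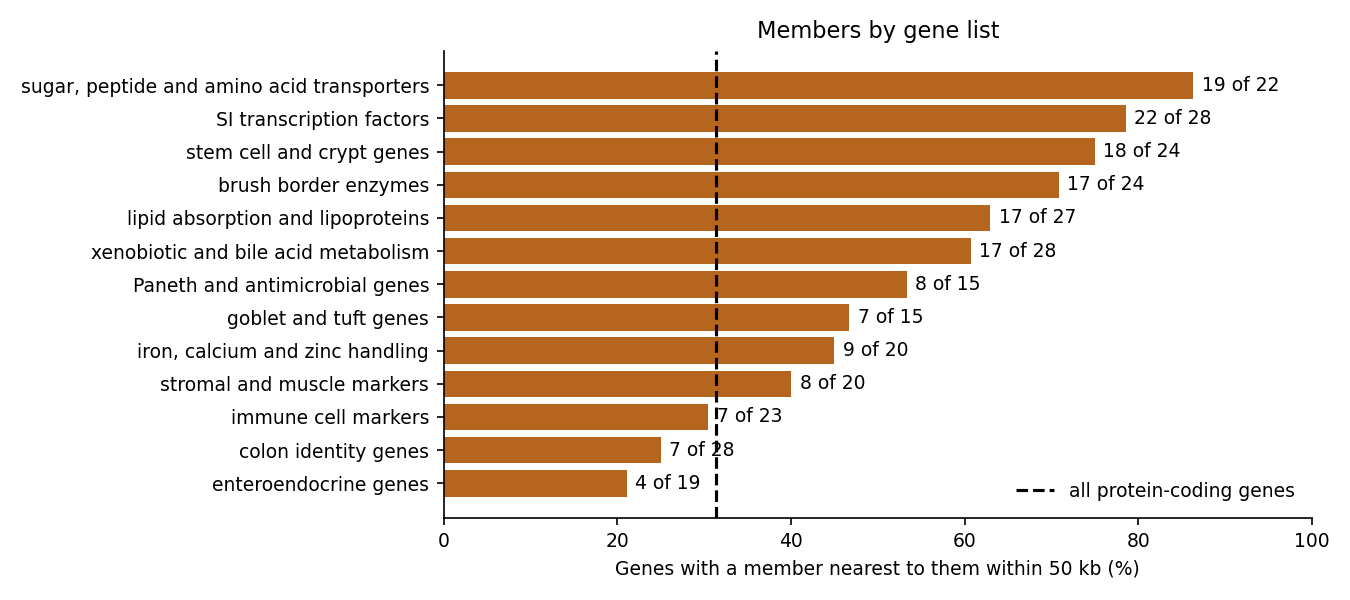
Bars give the percentage of genes in each list to which a member was nearest within 50 kb, with the number of genes, and the dashed line gives all protein-coding genes (31.3%). Transporters (19 of 22) and SI transcription factors (22 of 28) stand highest, and colon identity (7 of 28) and enteroendocrine genes (4 of 19) lie below the line. The line also counts genes without any SI villus peak within 50 kb, which cannot have a member. Such a peak was present at 15516 of 22367 protein-coding genes, all 22 transporter genes and 9 of 19 enteroendocrine genes.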

How the data were processed

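Reads were aligned to mm9, and the authors ran MACS2 2.1.0.20150731 (q value threshold 0.05, no input control, 1 tag retained per position) for every single sample and for each compartment's merged samples. The submitters' processing notes also name Bowtie2 2.2.6, SAMtools 0.1.19, Picard 2.18.27, bedtools 2.17.0 and cutadapt 1.9.1. The deposited lists give peak strength as −log10 q and fold enrichment as a ratio to the local background. The deposited pooled intervals keep each peak's length and centre it on its summit. The ATAC-seq tags of the pooled SI villus, SI crypt and colon lists were extended to 157, 102 and 157 bp, which sets the shortest peak, so widths were not compared between compartments. Their tags were shifted by −53, −51 and −78 bp. In the SI villus list, which sets the members and their summits, the extension is not about 2 times the size of the shift as in the other lists, and the effect was not tested. The authors' sets of differential VDR sites were not used.

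Overlaps, motif searches (18 motifs, both strands, 200 bp at the summit) and distances to 22367 protein-coding genes of the mm9 annotation (GENCODE vM1) were computed in Python 3.11.15 with numpy 2.4.6 and scipy 1.17.1, and the steps were checked on simulated data. Of 296 list symbols 293 were found, 4 of them by an older symbol. Sequences were read from mm9, and none printed was chosen from chromosome 18. Members, lists and motifs were chosen with earlier results of these data known. Genes named are those nearest to the 10 strongest members in SI villus and in SI crypt, the 10 with most members, and list genes by their counts. Shares of regions carry Wilson 95% intervals, since regions are not replicates. Shares per sample were compared with exact permutation tests, adjusted by Benjamini-Hochberg. Alternatives were other overlap, strength and distance limits, other windows, equal numbers of peaks, dropping every sample in turn, and a replicate block. The use of MACS2 intervals as called and the removal of copies were chosen after seeing the data.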

Additional observations from a re-analysis of the deposited data

Results flagged for a closer look

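SI crypt VDR sample 1 lay far from the other SI crypt VDR samples in the share of members under its own VDR peaks, 0.537% against 0 to 0.0129% (a count of 0 allows up to 0.0194%, 3 counts of the 15459). Colon VDR sample 4 stood apart in the same way, with 0.188% against 0.00647% to 0.0259% in the other colon VDR samples. Each gap exceeded Dixon's 95% critical value for 4 samples, which chance passes in about 1 of 20 groups of normally spread values. Counts as low as these, 83 against 0 to 2 and 29 against 1 to 4, need not be spread so. The members were also chosen for lacking a pooled VDR peak made from these same samples. The flag is therefore a description. These 2 samples also had the most peaks of their compartment, 13381 and 10100. SI crypt VDR sample 1 kept 3100376 fragments after filtering, the fewest of all VDR samples, and colon VDR sample 4 kept 12561570. The part of peak number and of kept fragments in the values was not tested.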

How the results depend on the processing

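Of 475 values under other settings, 399 stayed as they were: a tested difference kept its direction and its side of the threshold, a share stayed within its interval, and a count within 1.5 times. Another 62 moved by more than that and 14 changed sign. The smallest adjusted p among the motif differences that changed sign was 0.122, for CTCF (exact permutation test). With equal numbers of the strongest peaks the SI minus colon difference was −0.571 percentage points for CTCF (0.479 otherwise) and 0.00902 for HNF1 (−0.00629). With all peaks it was 0.00197 for HNF1, −0.00739 for CEBP (0.00716), −0.0012 for DR3 (0.00888) and 0.0172 for BACH1/MAFK (−0.000408), and with windows of 100 bp −0.0101 for CEBP. With 1 sample left out the range was −0.0629 to 0.0641 for BACH1/MAFK, −0.00325 to 0.0154 for CEBP and −0.0141 to 0.00104 for HNF1. Requiring at least 2 of 3 samples in both SI compartments left 5537 members and 1698 genes with a member, against 15459 and 4526, with 8.61% at promoters, a GATA share of 44.8% and an HNF4A share of 3.47%. With only SI peaks at a −log10 q of 5 the promoter share was 10.2% and GATA 37.9%, and with only colon and VDR peaks at that limit 12.0% and 35.1%. Excluding colon or VDR peaks within 500 bp gave 7.97% at promoters, and excluding single colon and VDR samples gave 10.2% and a GATA share of 37.0%. Promoter limits of 500 and 2000 bp gave 7.30% and 15.7%. Windows of 100 and 400 bp gave GATA shares of 22.9% and 50.5%, and HNF4A shares of 1.92% and 3.52%. Gene limits of 2 and 50 kb gave 2170 and 7008 genes. MACS2 intervals as called gave 15395 regions, 15170 of them members, and removing copies left 14780; both were chosen after seeing the data.

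The SI minus colon difference in GATA share was 10.6 to 11.8 percentage points with 1 sample left out and 7.71 to 12.4 under the other settings, and for HNF4A 0.235 to 0.459 and 0.0759 to 0.351. The SI villus minus SI crypt share of members called was −1.89 (without SI crypt sample 2) to 16.2 with 1 sample left out. With the replicate number as a replicate block the GATA difference was 11.3 (exact permutation, adjusted p = 0.167, where 27 arrangements allow no unadjusted p under 0.0741) and the HNF4A difference 0.351. The SI villus minus SI crypt difference was 7.02 (exact permutation, p = 0.75), a test that decides nothing for the reasons given above. Same-numbered samples deviated together in no regular way (correlations −0.81 to 0.558), so the numbers were not taken as pairs. The pooled lists rest on 54803820 to 84065934 tags kept, and a region absent from the colon list may be open below the limit of detection.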
